A study of Homo sapiens with 10 samples.

Results

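K562 cells treated with 2 µM CBP30 were compared with K562 cells treated with 5 µM I-CBP112, without vehicle in the contrast, to find the genes that separated these treatments. K562 is an established human leukemia line with erythroid features, grown from a chronic myelogenous leukemia in blast crisis, and it carries the BCR-ABL fusion kinase. The series held 10 samples in 5 groups of 2 biological replicates, namely DMSO (vehicle), 2 µM CBP30, 5 µM CBP30, 2 µM I-CBP112 and 5 µM I-CBP112, each given for 48 h, and 4 of these samples entered the contrast. No other allele, agent or genotype differed between the groups. The cells are 1 line, so the samples give no spread between patients or lines.

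CREBBP and its paralog EP300 are transcriptional coactivators that acetylate histones and other proteins, and each has a bromodomain, a pocket that binds acetylated lysine. CBP30 and I-CBP112 are small molecules that occupy this pocket, and neither is aimed at the acetyltransferase domain. In erythroid cells the coactivators work with GATA1 and its partners at enhancers of the globin, red cell membrane and other lineage genes. The compound and its concentration both differed in the contrast, so what belongs to the molecule and what to the dose cannot be told apart.

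The values were FPKM, fragment numbers scaled to the length of the transcript and to the size of the library. Of the 23284 genes in the table, 12788 reached an average of 0.5 FPKM across the 10 columns, 396 of these were small RNA genes and were left out, and the other 12392 were tested. Differences are given as log2(FPKM + 1) of CBP30 minus I-CBP112, a scale on which changes at low FPKM look smaller than they are. A gene was called when limma gave it a Benjamini-Hochberg adjusted p under 0.05 in 1 fit of all 5 groups. FPKM hold no read counts, so the sequencing depth is unknown. The p-values rest on the spread between the 2 samples of a group, pooled over the 5 groups, and not on the spread of the compared groups alone.

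The columns summed to between 547504 and 689095 FPKM, with the highest sum in replicate 1 of 2 µM CBP30. The correlation of log2 values between replicates was 0.987 for 2 µM CBP30 and from 0.997 to 0.998 for the other 4 groups. The erythroid markers of the line were present, with GATA1 at 170 and 171 FPKM and fetal globin HBG1 at 255 and 255 FPKM in DMSO. Of 26 markers of other cell types 18 had a mean under 0.5 FPKM, and 4 of these, MS4A1, KRT5, KRT14 and CDH5, were listed at 0 in all samples. The other 8 were tested and limma called none, with 2 at an unadjusted p under 0.05, against 3276 of all 12392 genes tested. The summed level of the 26 markers was 92.8 to 109 FPKM with 2 µM CBP30 and 93.3 to 96.3 FPKM with 5 µM I-CBP112. Most of it came from EPCAM, PTPRC and CD3D, at 56.3, 16.8 and 27.3 FPKM in replicate 1 of 2 µM CBP30. In replicate 1 of DMSO these 3 genes stood at 59.7, 28.5 and 15.1 FPKM.

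The library of replicate 1 of 2 µM CBP30 stood apart by transcript length. Against either I-CBP112 sample, its short transcripts were high and its long transcripts low, with Spearman's rho across genes between length and difference of -0.61 and -0.60, whereas rho was 0.003 and -0.04 for replicate 2. In length group 1, the shortest of 5 equal groups of genes, the median difference was 0.30 and 0.31 with replicate 1, and in length group 5 it was -0.28 and -0.28. The calls of the contrast over all genes and over gene lists are therefore given from the values as deposited and from a second fit. In the second fit the trend with length was removed from each sample. Calls against DMSO, and list counts between 5 µM CBP30 and 2 µM I-CBP112, are from the values as deposited only. FPKM, differences and p-values of single genes are from the values as deposited unless the correction is named. The second fit held the 11778 genes with a known transcript length, 95% of those tested. "Both fits" below means called in the same direction in each.

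At these doses 655 of 12392 genes (5.29%) separated the treatments, 420 (3.39%) lower and 235 (1.9%) higher with CBP30. The differences were modest. The median was -0.46 among the lower genes and 0.43 among the higher genes, against a median size of 0.14 over all genes tested. A difference of at least 1 was reached by 11 lower and 5 higher genes. In all 655 called genes the samples of the treatments did not overlap, which was also the case for 49.3% of all genes tested, and 3276 genes had an unadjusted p under 0.05. The lower genes had longer transcripts (median 4230 bases) and the higher genes shorter ones (2288 bases) than the tested genes as a whole (3156 bases).

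With the length trend removed, 1419 of 11778 genes (12%) were called, 791 lower (6.72%) and 628 higher (5.33%). Both fits called 371 genes lower (3.15%) and 205 higher (1.74%), together 576 (4.89%). A fit without replicate 1 of 2 µM CBP30 called 756 lower and 387 higher genes, which included 389 of the 420 and 207 of the 235. Without replicate 2 of 2 µM CBP30 it was 3125 lower and 3353 higher, without replicate 1 or 2 of 5 µM I-CBP112 it was 44 or 57 lower and 13 or 16 higher, and without any 1 of the other 6 samples it was 195 to 225 lower and 75 to 99 higher. The calls rested on the spread pooled over the 5 groups. In a fit of the 4 samples alone, which leaves 2 residual degrees of freedom, 1344 genes had an unadjusted p under 0.05 and a single gene, LOC283214, passed adjustment.

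The pair was chosen as the closest of the 4 pairs of a CBP30 group with an I-CBP112 group, which is not to say that the doses were equal in effect. Against DMSO, 2 µM CBP30 called 2237 genes lower and 2189 higher, and 5 µM I-CBP112 called 461 and 543. In the same fit 2440 genes (19.7%) were called between the compounds at 2 µM, 4238 (34.2%) at 5 µM, and 5107 (41.2%) between 5 µM CBP30 and 2 µM I-CBP112. The median size of the difference was 0.17, 0.20 and 0.22 in these pairs, against 0.14 here. The order was the same with the length trend removed, with 1419 genes called here and 3353 (28.5%), 5136 (43.6%) and 5974 (50.7%) in the others. Raising CBP30 from 2 to 5 µM changed 5429 genes (43.8%), whereas raising I-CBP112 over the same step changed 3 (0.0242%), the histone genes HIST1H2BC, HIST1H4H and HIST2H2BE, by 0.50 to 0.76. With the length trend removed these steps called 4917 (41.7%) and 11 genes (0.0934%).

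**Figure D1:**
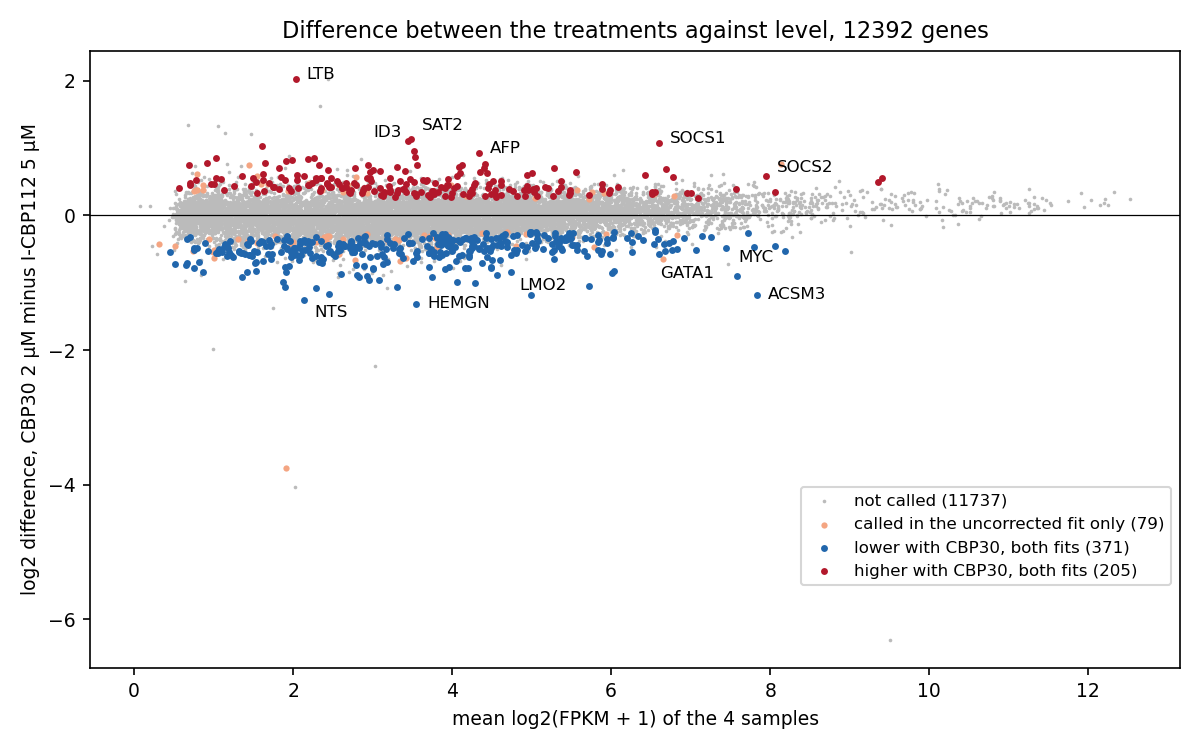
Each point is 1 of the 12392 genes tested, with its mean log2(FPKM + 1) over the 4 samples on the x axis and its log2 difference, 2 µM CBP30 minus 5 µM I-CBP112, on the y axis. Genes called in both fits are blue (371 lower) or red (205 higher), genes called only without correction or lacking a known length are orange, and the bulk of the genes lie close to 0.

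For most genes that separated the treatments the means of both compounds lay on the same side of DMSO, with CBP30 farther from it, although I-CBP112 itself passed the test against DMSO for a minority of them. Of the 371 genes lower in both fits, 312 were farther from DMSO with CBP30, 7 were farther with I-CBP112 and 52 had the group means on opposite sides of DMSO. For the 205 higher genes these numbers were 183, 0 and 22. Over all genes tested CBP30 was the farther in 60.9%, I-CBP112 in 17.5%, and 21.6% lay on opposite sides. Among the 371, CBP30 was called below DMSO for 350 genes and I-CBP112 for 149, against 18.1% and 3.72% of all genes tested. Among the 205, CBP30 was called above DMSO for 199 and I-CBP112 for 75, against 17.7% and 4.38%. The same CBP30 and I-CBP112 samples made both the choice and these positions, so they describe the genes and test nothing further.

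HEMGN, which encodes hemogen, a nuclear protein of red cell precursors, had the largest difference of the named genes that were lower with CBP30. It stood at 6.03 and 6.88 FPKM with CBP30, at 17.9 and 17.0 FPKM with I-CBP112 and at 44.4 and 44.1 FPKM in DMSO. Each compound was called below DMSO (-2.60 and -1.29), and the I-CBP112 mean was 2.71 times the CBP30 mean. The difference was -1.31 (SE 0.08, 95% interval -1.51 to -1.12, adjusted p = 0.000378). HEMGN lies on chromosome 9 at 100689073 to 100707138 of hg19.

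ACSM3 encodes a mitochondrial acyl-CoA synthetase for medium-chain fatty acids and had the highest FPKM of the 12 named lower genes in the plot of named genes. It measured 146 and 156 FPKM with CBP30, 348 and 340 FPKM with I-CBP112 and 454 and 471 FPKM in DMSO. The difference was -1.18 (SE 0.07, adjusted p = 0.000269) and the groups were far apart. GLT25D2, a collagen galactosyltransferase, read 17.0 and 23.9 FPKM against 47.2 and 47.1 FPKM, a difference of -1.19 (adjusted p = 0.00242). GRAP2, an adaptor of antigen receptor signalling, read 2.51 and 2.77 FPKM against 7.44 and 6.96 FPKM, with 18.2 and 16.4 FPKM in DMSO. I-CBP112 thus stood between CBP30 and DMSO for ACSM3, GLT25D2 and GRAP2.

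For a set of genes the I-CBP112 samples stayed near the vehicle. NTS encodes the peptide neurotensin and stood at 2.12 and 1.61 FPKM with CBP30, 5.40 and 6.26 FPKM with I-CBP112 and 6.97 and 6.16 FPKM in DMSO. BMX, a Tec-family tyrosine kinase, stood at 2.23 and 2.50, 5.85 and 6.40, and 6.02 and 5.91 FPKM in the same order. MYO3B, an unconventional myosin, stood at 3.98 and 5.15, 9.68 and 9.85, and 10.6 and 10.1 FPKM. For NTS, BMX and MYO3B the I-CBP112 and DMSO samples interleaved or adjoined, and the differences between the treatments were -1.26 (adjusted p = 0.0036), -1.08 (adjusted p = 0.000622) and -0.96 (adjusted p = 0.00191). GABRE, a GABA-A receptor subunit, stood at 10.7 and 15.2 FPKM under CBP30, 23.8 and 29.7 FPKM under I-CBP112 and 23.5 and 21.3 FPKM in DMSO. The I-CBP112 samples lay above DMSO by 0.24, which did not pass (adjusted p = 0.401).

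PRKCB (a protein kinase C isoform), PPP1R14C (an inhibitor of protein phosphatase 1), MICAL2 (an actin-oxidizing monooxygenase) and PVT1 (a long noncoding RNA beside MYC) completed the 12 named lower genes, with differences from -1.06 for MICAL2 to -0.95 for PPP1R14C. MICAL2 was at 4.74 and 7.21 FPKM with 2 µM CBP30 and at 12.3 and 12.4 FPKM with 5 µM CBP30, against 13.7 and 12.8 FPKM with 5 µM I-CBP112 and 19.6 and 19.1 FPKM in DMSO. Both CBP30 doses lay below DMSO, the lower dose the farther, and at 5 µM the compounds differed by -0.10 (adjusted p = 0.62).

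LTB, which encodes lymphotoxin beta, a membrane ligand of the tumor necrosis factor family, had the largest difference of the named higher genes. It stood at 10.4 and 5.00 FPKM with CBP30, at 1.31 and 0.777 FPKM with I-CBP112 and at 0.800 and 0.341 FPKM in DMSO. The CBP30 samples lay above all others although they differed between themselves. The difference was 2.03 (SE 0.28, 95% interval 1.39 to 2.67, adjusted p = 0.00764) in the values as deposited and 1.87 with the length trend removed. LTB lies on chromosome 6 at 31548302 to 31550299 of hg19.

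SAT2 (a member of the spermidine/spermine acetyltransferase family), ID3 (an inhibitor of basic helix-loop-helix factors) and SOCS1 (a feedback inhibitor of JAK-STAT signalling) followed. SAT2 read 17.9 and 13.7 FPKM with CBP30, 5.70 and 7.52 FPKM with I-CBP112 and 3.33 and 2.85 FPKM in DMSO. ID3 read 18.0 and 12.5, 6.93 and 5.99, and 1.91 and 1.51 FPKM. SOCS1 read 175 and 112, 66.2 and 66.1, and 31.8 and 32.9 FPKM. With either compound SAT2, ID3 and SOCS1 were called above DMSO, and CBP30 lay higher, with differences of 1.14, 1.11 and 1.07 (adjusted p = 0.00448, 0.00679 and 0.00908). Their transcripts are short, and with the length trend removed the differences were 0.99, 0.95 and 0.94.

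AFP, alpha-fetoprotein, had the smallest SE of the 12 named higher genes in the plot of named genes, with 26.9 and 26.9 FPKM under CBP30, 13.8 and 13.5 FPKM under I-CBP112 and 9.16 and 9.45 FPKM in DMSO. Its difference was 0.93 (SE 0.06, adjusted p = 0.000378). MT2A, a metallothionein, passed narrowly, with 18.4 and 11.6 FPKM against 8.99 and 6.29 FPKM (0.87, adjusted p = 0.0444, and 0.74 with the length trend removed). The other 6 were BATF3 (an AP-1 family factor of dendritic cells), KCNJ11 (a potassium channel subunit), C21orf15, C7orf23, SMARCA1 (an ISWI-type chromatin remodeler) and AMH (anti-Müllerian hormone), with differences from 0.96 to 0.76.

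**Figure D2:**
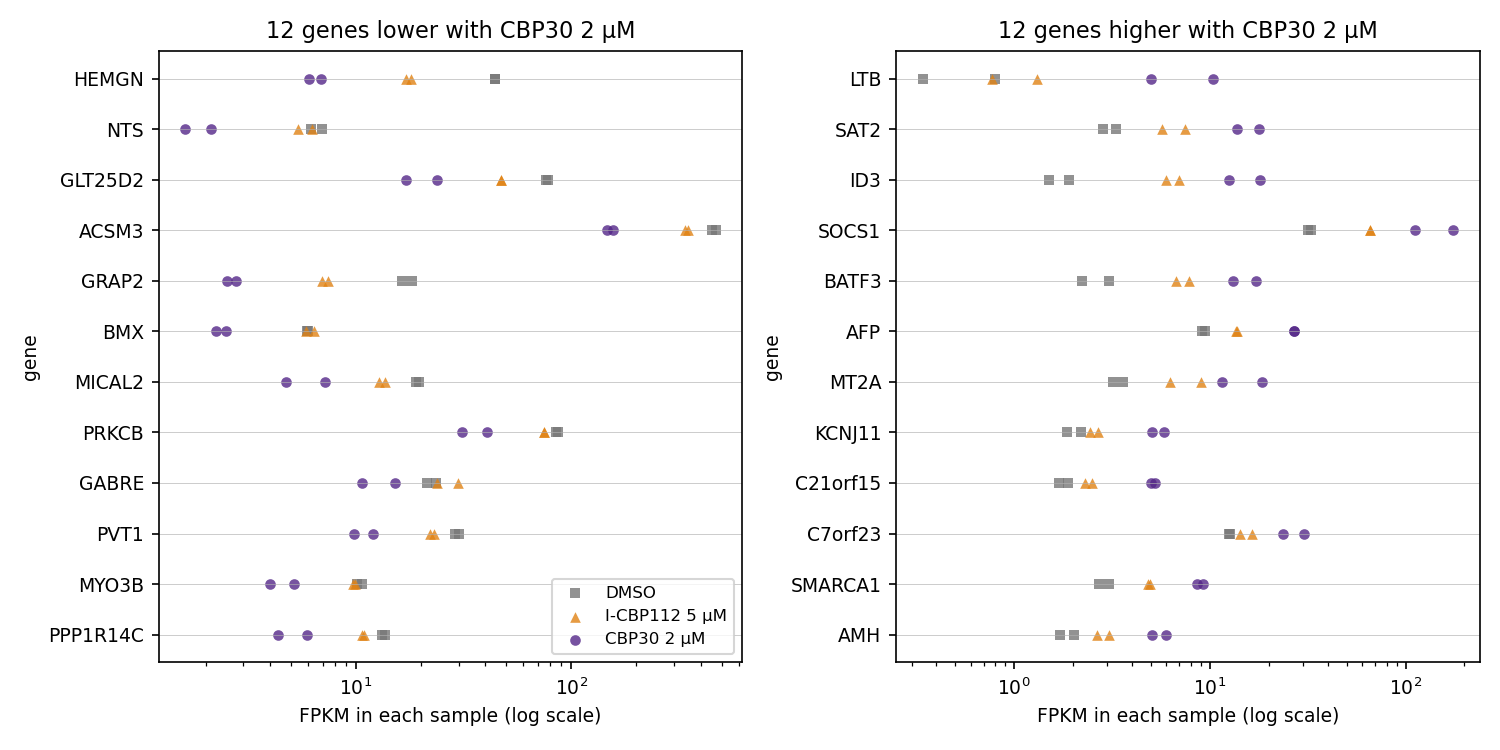
FPKM of the 12 named lower genes (left) and 12 named higher genes (right) on a log axis, with 1 marker per sample for DMSO, 5 µM I-CBP112 and 2 µM CBP30. The CBP30 markers lie beyond both I-CBP112 markers in every gene, and for HEMGN (6.03 and 6.88 against 17.9 and 17.0 FPKM) or ID3 the I-CBP112 markers lie between CBP30 and DMSO.

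LOC283214, an uncharacterized locus, was the largest call of the contrast and was chosen here after its values were seen, since it has no known transcript length and samples at 0. It was listed at 0 and 0.060 FPKM with 2 µM CBP30, at 0 in both 5 µM CBP30 samples and at 0 in both DMSO samples. It was at 13.7 and 12 FPKM with 5 µM I-CBP112 and at 8.38 and 14 FPKM with 2 µM I-CBP112. All 4 I-CBP112 samples thus held the transcript and the other 6 samples held next to none. An exact 0 in a table without counts can be a failed estimate, so no fold is given. Apart from LOC283214, SNAR-H, a small noncoding RNA gene that was not called (adjusted p = 0.0513), was the only gene at or below 0.1 FPKM in both samples of 1 treatment and at or above 1 FPKM in both of the other.

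EEF1A1, a translation elongation factor, stood at 0 in 1 column, replicate 1 of 2 µM CBP30, and at 5338 to 6661 FPKM in the other 9 samples. Its difference of -6.30 was not called (adjusted p = 0.217), and no other gene was at 0 in 1 sample and at least 5 FPKM in the other 9.

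Among the 28 gene lists, the red cell membrane list held the most calls, all of them lower with CBP30. For 21 red cell membrane and blood group genes, 11 were called lower and 0 higher, with a median of -0.36, against 3.39% lower, 1.9% higher and a median of 0.01 over all genes tested. TMOD1, which caps actin in the membrane skeleton, stood at 8.78 and 9.24 FPKM with CBP30 and 16.0 and 15.9 FPKM with I-CBP112, a difference of -0.76 (adjusted p = 0.000622). ADD2, beta adducin, stood at 1.94 and 1.98 against 4.17 and 3.84 FPKM. SPTB, beta spectrin, stood at 7.5 and 8.47 against 13.7 and 13.1 FPKM. TFRC (the transferrin receptor), ANK1 (ankyrin), KEL (the Kell antigen), SLC2A1 (the glucose transporter), ERMAP and RHAG were 6 more of the 11, with differences from -0.51 to -0.30. RHD and RHCE share long stretches of sequence, so reads may have been split between them. The median was also -0.36 with the length trend removed, where 14 were called lower, against 6.72% of all genes in that fit.

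Of 16 erythroid transcription factors 6 were called lower and 0 higher (median -0.26), against 3.39% and 1.9% of all genes tested. The median was -0.14 with the length trend removed, and again 6 were called lower and 0 higher. The shares over all genes in that fit were 6.72% and 5.33%. LMO2, the bridging subunit of the GATA1 complex, stood at 20.6 and 17.7 FPKM with CBP30, 34.9 and 34.7 FPKM with I-CBP112 and 90.4 and 86.7 FPKM in DMSO, a difference of -0.83 (adjusted p = 0.0012). GFI1B, a repressor that works with GATA1, stood at 14.3 and 11.8 against 24.1 and 22.0 FPKM. NFE2, a globin regulator, stood at 34.2 and 26.7 against 48.5 and 47.1 FPKM. GATA1 itself was at 105 and 85.3 FPKM with CBP30, 139 and 130 FPKM with I-CBP112 and 170 and 171 FPKM in DMSO. Its difference was -0.50 (SE 0.10, adjusted p = 0.0236), and the samples did not overlap. LDB1 and ZFPM1, partners of GATA1, were lower too, although ZFPM1 missed the threshold with the length trend removed (adjusted p = 0.0541). TAL1, another member of the complex, differed by 0.01 (adjusted p = 0.944).

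The globin and heme list was mixed, with 2 of 20 called lower and 1 higher (median -0.12), against 3.39% and 1.9% of all genes tested. HBZ, embryonic zeta globin, stood at 174 and 111 FPKM with CBP30 and 276 and 244 FPKM with I-CBP112 (-0.89, adjusted p = 0.0287). HBD, delta globin, was low throughout, at 0.147 and 0.456 against 0.914 and 1.55 FPKM (-0.77, adjusted p = 0.0364). ALAD, an enzyme of heme synthesis, was higher with CBP30, at 14.5 and 14.3 against 11.2 and 11 FPKM (0.35, adjusted p = 0.0207). The fetal globins HBG1 and HBG2, which share most of their sequence, differed by -0.43 and -0.71 with adjusted p = 0.125 and 0.053. Globin transcripts are short, the group that was high in replicate 1 of 2 µM CBP30, and with the length trend removed 6 of the 20 were called lower, HBG1 and HBG2 among them, and 1 higher. All genes in that fit gave 6.72% lower and 5.33% higher.

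Other lineage lists held few tested genes, and their counts in the values as deposited stand beside 3.39% lower and 1.9% higher over all genes tested. For megakaryocytes 4 of the 8 tested were lower and 0 higher (median -0.41), with THBS1 (thrombospondin) at 1.85 and 1.87 against 3.92 and 3.83 FPKM and ITGA2B (the platelet integrin) at 0.839 and 0.982 against 1.91 and 1.95 FPKM. GP6, the platelet collagen receptor, was at 1.32 and 1.24 against 2.70 and 2.70 FPKM, with 1.84 and 1.49 FPKM in DMSO. Of 12 myeloid genes 4 were lower and 0 higher (median -0.01). These were PRG2, MS4A3, S100P and ANXA1, and MS4A3 stood at 10.0 and 10.7 FPKM with CBP30, 18.0 and 19.5 FPKM with I-CBP112 and 45.1 and 48.7 FPKM in DMSO. In the length-corrected fit 4 megakaryocyte genes were again lower (median -0.40), and 4 myeloid genes were lower and 1 higher (median -0.12). Over all genes that fit called 6.72% lower and 5.33% higher.

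MYC, the growth-promoting transcription factor, was at 148 and 146 FPKM with CBP30, 210 and 201 FPKM with I-CBP112 and 338 and 320 FPKM in DMSO. The difference was -0.48 (SE 0.06, 95% interval -0.62 to -0.34, adjusted p = 0.00501), and each compound was called below DMSO (-1.16 and -0.68). Of 14 genes of the MYC and MAX network 3 were lower and 0 higher (median -0.17), the others being its neighbor PVT1 and its paralog MYCL1 at 6.86 and 6.30 against 10.2 and 9.35 FPKM. Of 34 nucleolar genes of ribosome biogenesis 2 were lower, NOLC1 and TCOF1, and 0 higher (median -0.11). Over all genes tested 3.39% were lower and 1.9% higher, so the count of calls in this fit is near the background. At an unadjusted limma p under 0.05, 13 of the 34 were lower and 0 higher, against 1747 and 1529 of all 12392 genes tested. With the length trend removed 4 of the 14 MYC network genes were lower (median -0.15), as were 11 of the 34 nucleolar genes (median -0.16), against 6.72% of all genes in that fit, but TCOF1 was no longer called (adjusted p = 0.0588).

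Signalling lists held calls in both directions, in the values as deposited, where 3.39% of all genes tested were lower and 1.9% higher. Of 15 JAK-STAT5 target and feedback genes 2 were higher and 1 lower. The higher genes were SOCS1 and SOCS2, both feedback inhibitors, and SOCS2 stood at 308 and 296 FPKM with CBP30 against 202 and 200 FPKM with I-CBP112 (0.59, adjusted p = 0.0024). The lower gene was EPOR, the erythropoietin receptor, at 2.87 and 2.54 against 4.21 and 4.36 FPKM (-0.51, adjusted p = 0.0117). Of 15 MAPK feedback genes the phosphatases DUSP4 and DUSP5 were higher, both by 0.41, and CCND1 (cyclin D1) lower, at 1.01 and 0.990 against 2.23 and 2.95 FPKM (-0.84, adjusted p = 0.0036). Of 19 AP-1 and immediate early genes BATF3, IER3 and JUN were higher and KLF10 lower. JUN was at 13.8 and 11 FPKM with CBP30, 8.46 and 7.90 FPKM with I-CBP112 and 7.09 and 7.93 FPKM in DMSO, so the I-CBP112 samples adjoined the vehicle samples and CBP30 lay above them. In the length-corrected fit 2 JAK-STAT5 genes were lower and 4 higher, 1 MAPK gene was lower and 4 higher, and 2 AP-1 genes were lower and 3 higher. Over all genes in that fit 6.72% were lower and 5.33% higher.

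NQO1, a quinone reductase in the aryl hydrocarbon receptor list and the NRF2 list, stood at 53.3 and 44.7 FPKM with CBP30 and 30.7 and 28.1 FPKM with I-CBP112 (0.71, adjusted p = 0.00448). AHRR, the receptor's repressor, was the other of 6 aryl hydrocarbon receptor genes that was higher (0.37, adjusted p = 0.0283), and the receptor AHR itself differed by 0.12 (adjusted p = 0.533). Of 18 NRF2 genes 1 was higher, NQO1, and 1 lower, SRXN1 (sulfiredoxin). In the values as deposited 3.39% of all genes tested were lower and 1.9% higher. After the correction for length 2 aryl hydrocarbon receptor genes were again higher, and 3 NRF2 genes were lower and 1 higher. Over all genes 6.72% were lower and 5.33% higher after this correction.

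The genes of the targeted proteins were not called. CREBBP was at 4.67 and 7.35 FPKM with CBP30 and 6.24 and 6.68 FPKM with I-CBP112, a difference of -0.12 with a 95% interval of -0.47 to 0.24. EP300 was at 3.92 and 7.66 against 7.57 and 7.54 FPKM, a difference of -0.39 with an interval of -0.86 to 0.08. Both transcripts are long, and in both the lower CBP30 sample was replicate 1. The limma fit of the values as deposited called none of the 18 lysine acetyltransferase genes and none of the 30 other bromodomain genes (medians -0.20 and -0.11). In each list 5 genes had an unadjusted p under 0.05, against 3276 of all 12392 genes tested. With the length trend removed the medians were -0.06 and -0.01. That fit called 1 acetyltransferase gene lower (GTF3C4) and 1 higher (KAT2B), and 1 bromodomain gene lower (ZMYND8). Its shares over all genes were 6.72% lower and 5.33% higher.

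Calls were few or absent in the remaining lists. The limma fit of the values as deposited called no gene among 78 ribosomal proteins, 30 mitosis genes, 23 interferon response genes or 22 genes of the ATF4 stress response, where 2, 8, 4 and 1 had an unadjusted p under 0.05. Over all 12392 genes tested 3276 had such a p. The ribosomal proteins, whose transcripts are short, had a median of 0.18, which was 0.40 with replicate 1 and -0.01 with replicate 2 of CBP30, and 0.06 with the length trend removed. In the values as deposited a single gene was called in each of 7 lists, namely ORC1 (lower) in DNA replication and, higher, H3F3B among histone variants, HEXIM2 among BET and P-TEFb genes, HDAC1 among histone deacetylases, TM7SF2 in cholesterol synthesis, HSPA1B among heat shock chaperones (a near copy of HSPA1A) and BAD in the BCL2 family. Of 20 G1 genes CCND1 was lower and CDKN1B, the inhibitor p27, higher. Of 30 actin genes FLNA (filamin A) and VCL (vinculin) were lower and CORO1A (coronin) higher. Over all genes tested 3.39% were lower and 1.9% higher in the values as deposited, so single calls in lists of this size do not set them apart. With the length trend removed no ribosomal protein, mitosis or interferon response gene was called, and 2 ATF4 genes, DDIT3 and DDIT4, were lower. In that fit 1 DNA replication gene was lower, 3 histone variants, 2 BET and P-TEFb genes, 2 deacetylases and 2 chaperones were higher, 1 cholesterol gene was lower and 4 were higher, and 1 BCL2 family gene was lower and 1 higher. The G1 list had 2 lower and 2 higher, and the actin list 4 lower and 3 higher. These counts stand beside 6.72% lower and 5.33% higher over all genes in that fit.

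**Figure D3:**
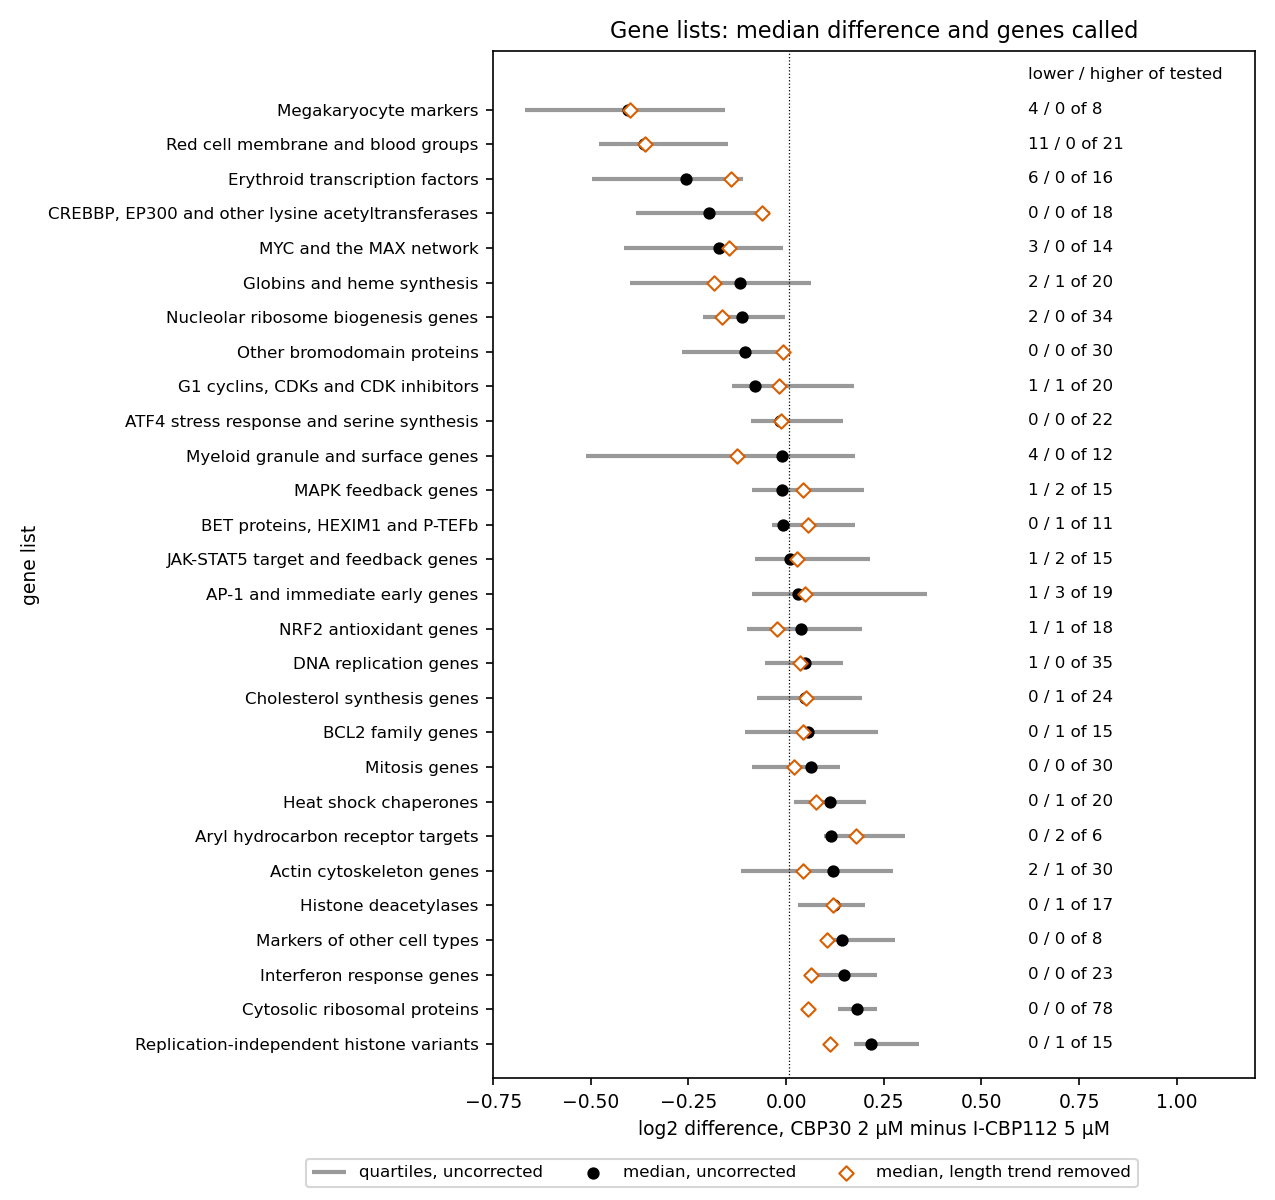
Median log2 difference (2 µM CBP30 minus 5 µM I-CBP112) of the tested members of 28 gene lists, as black points with bars from the lower to the upper quartile, and as open diamonds with the length trend removed. The numbers at the right are genes called lower, called higher and tested, as in 11 / 0 of 21 for red cell membrane genes, and the dotted line is the median of all genes tested.

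The difference was also taken between 4 other samples, 5 µM CBP30 and 2 µM I-CBP112, where the doses lean the other way. Their levels do not enter the difference of the contrast, but their spread enters the pooled estimate behind its calls, and both comparisons use the same estimate for each gene, so the calls are not independent. Of the 371 genes lower in both fits, 348 were below 0 there too, against 52.1% of all genes tested, and 315 (84.9%) were called lower, against 22.6%. Of the 205 higher genes 188 were above 0, against 47.8%, and 156 (76.1%) were called higher, against 18.6%. The median difference was -0.62 for the lower and 0.52 for the higher genes, against -0.48 and 0.44 in the contrast itself. Over all genes tested the correlation of the differences was r = 0.34 (Spearman's rho = 0.23), and 0.47 (0.42) with the length trends removed, as a description over 12392 and 11778 genes that are not independent of each other. Side by side, the medians of the 371 and of the 205 were -0.55 and 0.55 between the compounds at 2 µM and -0.52 and 0.45 at 5 µM, in contrasts that each share 2 samples with this one.

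ACSM3 differed by -3.09 in the other 4 samples and HEMGN by -1.86, LMO2 by -2.46, PVT1 by -2.46 and S100P by -4.03 (from -0.64 in the contrast). LTB differed by 3.53, SAT2 by 1.88 and SMARCA1 by 1.88. A few genes differed much less there than in the contrast. BATF3 was at 17.2 and 13.1 FPKM with 2 µM CBP30 and at 5.5 and 6.09 FPKM with 5 µM CBP30, against 5.48 and 5.46 FPKM with 2 µM I-CBP112, a difference of 0.07 (adjusted p = 0.724). AFP was at 13.6 and 13.1 FPKM with 5 µM CBP30 and was still called higher, by 0.20 (adjusted p = 0.0308) against 0.93 in the contrast.

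For 10 of the 576 genes the call was in the opposite direction in the other 4 samples. FLNA stood at 35.4 and 42.5 FPKM with 2 µM CBP30 and at 75.7 and 74.2 FPKM with 5 µM CBP30, against 57.0 and 55.8 FPKM with 2 µM I-CBP112, a difference of 0.40 (adjusted p = 0.00459) there and of -0.44 in the contrast. With the length trend removed the FLNA difference in the contrast was -0.28. IGFL2, chosen after its values were seen, was at 44 and 34.6 FPKM with 2 µM CBP30 and at 11.1 and 10.7 FPKM with 5 µM CBP30. It differed by 0.63 in the contrast and by -0.85 (adjusted p = 0.00102) in the other 4 samples. For FLNA and IGFL2 the CBP30 doses lay on different sides of the I-CBP112 samples.

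**Figure D4:**
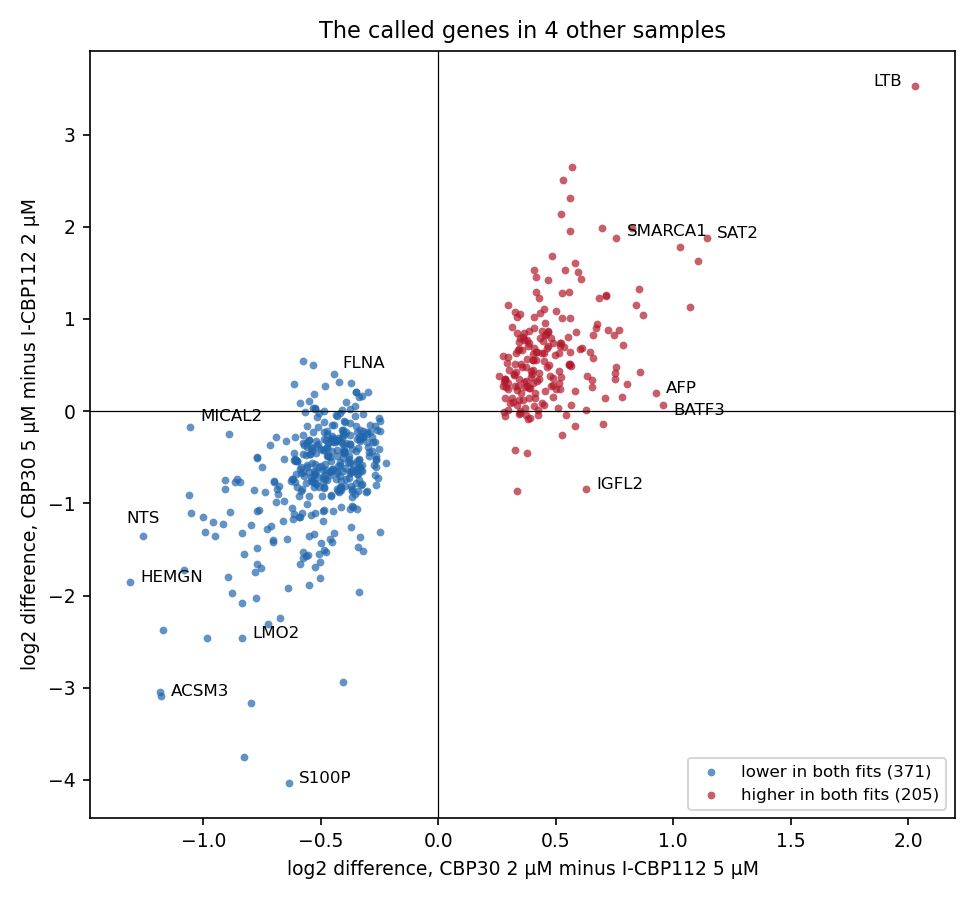
Each point is a gene called in both fits (371 lower, 205 higher), with its log2 difference in the contrast on the x axis and its log2 difference between 5 µM CBP30 and 2 µM I-CBP112, 4 samples outside the contrast, on the y axis. Most points keep their sign, MICAL2, AFP and BATF3 lie near 0 on the y axis, and FLNA and IGFL2 change sides.

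A small set of genes lay on opposite sides of vehicle, with both CBP30 samples beyond both DMSO samples and both I-CBP112 samples beyond them the other way. Among genes called in both fits this held for 29 of the 371 lower and 11 of the 205 higher genes, and over all genes tested it held for 1.07% with CBP30 lower and 0.993% with CBP30 higher. Choosing genes that differ between the treatments favours such positions, and for none of the 10 named for it, GABRE included, did I-CBP112 pass the test against DMSO (adjusted p from 0.058 to 0.807). This does not hold for every gene so placed. GP6, below the FPKM that the naming asked for, held such positions, and limma called I-CBP112 above DMSO (0.48, adjusted p = 0.0169). C15orf26 was at 3.69 and 3.30 FPKM with CBP30, 7.07 and 7.29 FPKM with I-CBP112 and 5.24 and 5.03 FPKM in DMSO (-0.86, adjusted p = 0.0056). UBXN10, a ubiquitin-domain protein, was at 10.1 and 11.8, 16.5 and 16.1, and 14.5 and 14.8 FPKM, and differed by -0.71 (adjusted p = 0.000181) in the other 4 samples. MARCH3, a ubiquitin ligase, and BMP2K, a kinase, completed the named lower genes together with GABRE, and for BMP2K the difference was 0.09 (adjusted p = 0.627) in the other 4 samples.

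On the higher side, MILR1, ZNF205, MLLT10P1, LRG1 and BANP were the genes named for opposite positions, with differences from 0.54 to 0.35. MILR1, an inhibitory receptor of mast cells, was at 19.9 and 15.7 FPKM with CBP30, 11.1 and 12.6 FPKM with I-CBP112 and 14.9 and 13.8 FPKM in DMSO. With the length trend removed the MILR1 difference was 0.38. In the other 4 samples the differences of these 5 genes ran from -0.04 to 0.14, and none was called.

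Among the 371 genes lower in both fits, 14 (3.77%) were called above DMSO with 5 µM I-CBP112, against 4.38% of all genes tested. Of the 205 higher genes 1 (0.488%), the pseudogene RPS2P32, was called below DMSO, against 3.72%. These shares are no higher than the background. These were looked up after the values were seen. STAT3, a signal transducer of cytokine receptors, was at 67.9 and 66.6 FPKM with I-CBP112, 53.8 and 54.7 FPKM in DMSO and 44.5 and 48.9 FPKM with CBP30, and differed by -0.52 (adjusted p = 0.00337) in the contrast and by -0.38 (adjusted p = 0.00131) in the other 4 samples. ZFP42, a zinc finger protein of pluripotent cells, was at 22.6 and 20.9 FPKM with I-CBP112 against 12.1 and 12.4 FPKM in DMSO and 13.9 and 14.3 FPKM with CBP30. TMEM158 was at 28.4 and 28.6, 19.7 and 18.9, and 19.1 and 13.6 FPKM in that order. In STAT3, ZFP42 and TMEM158 both I-CBP112 samples lay above all DMSO and CBP30 samples.

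The start regions of the separated genes were read from RefSeq sequence of GRCh38.p14, as the 250 bases before each annotated start. Of the tested genes 8646 were matched by symbol, with 12556 start regions. The letters AGATAA or their reverse complement TTATCT, a core that GATA factors bind, were held by 49 of 443 start regions (11.1%) of the genes lower in both fits and by 10 of 208 (4.81%) of the higher genes, against 5.3% of the start regions of all tested genes and 9.17% of all 35116 in the table. The letters CACGTG, which read the same on both strands and are bound by MYC with MAX, were held by 10.2% and 5.29%, against 8.38% and 6.34%. Counted by gene, AGATAA or TTATCT was held by 45 of 268 lower and 8 of 138 higher genes, against 608 of 8646 tested genes. CACGTG was held by 40 and 11, against 993. Neither motif contains the other, and a match is a description of the sequence and not evidence of binding.

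The following start regions, chosen after the values were seen, show AGATAA in capitals in the membrane gene SPTB and in NTS. The SPTB region is chr14:64879908-64880157 on the minus strand, with AGATAA beginning 42 bases before the start. The NTS region is chr12:85874045-85874294 on the plus strand, with AGATAA beginning 72 bases before the start.
SPTB: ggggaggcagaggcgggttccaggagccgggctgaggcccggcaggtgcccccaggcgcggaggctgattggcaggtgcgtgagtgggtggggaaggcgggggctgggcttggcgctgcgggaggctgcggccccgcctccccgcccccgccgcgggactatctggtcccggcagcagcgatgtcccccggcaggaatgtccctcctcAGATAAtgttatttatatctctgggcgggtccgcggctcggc
NTS: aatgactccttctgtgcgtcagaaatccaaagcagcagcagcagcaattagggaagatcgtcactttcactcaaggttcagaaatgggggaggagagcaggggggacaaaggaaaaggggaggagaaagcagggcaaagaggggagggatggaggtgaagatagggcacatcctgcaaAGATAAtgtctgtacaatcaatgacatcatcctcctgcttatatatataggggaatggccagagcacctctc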

How the data were processed

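Polyadenylated RNA of K562 cells was sequenced as stranded single reads. The authors deposited FPKM values, 1 column per sample, replicates not pooled. The submitters' processing notes name TopHat2 2.0.10, Bowtie 1.0.0, SAMtools 0.1.19, Cufflinks 2.2.1, Cuffnorm and FastQC with the hg19 (GRCh37) build, and the gene annotation is not given in the sources used here. FPKM are relative values, so a change in abundant genes can shift the others, and the scaling that Cuffnorm applied between libraries is not given here. No counting error could be derived. Every column was matched to its sample by name.

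The log2 of FPKM + 1 was fitted by limma 3.58.1 (R 4.3.3, lmFit and a trended eBayes), 5 groups in 1 fit with 5 residual and 3.85 prior degrees of freedom, two-sided, with Benjamini-Hochberg adjustment over the genes tested. Small RNA genes (prefixes MIR, SNOR, SCARNA and RNU) were left out. Lengths and GC content were read from GENCODE transcripts on GRCh37, and the trend with log2 length was removed from each sample by loess (span 0.3). The method was tested on simulated data with independent noise, planted differences of 1 and a length trend in 1 sample. Most called differences here are smaller, so that test does not bear on them.

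Named genes were the 12 largest differences per direction among those called in both fits, with 5 FPKM or more in the higher mean, non-overlapping samples and no sample at 0, the 5 largest per direction on opposite sides of DMSO, up to 3 called genes and the first tested gene of each list, and CREBBP, EP300, MYC and GATA1. Only those the text turns on are described. The members, lists and tests were chosen with earlier results of these data known, so lists are described by counts and medians. Alternatives were another pseudocount, filter, scaling, variance model, sample set, length or GC correction, replicate block, and each sample left out. Figures were made in Python 3.11.15 with matplotlib 3.10.9. Some members of the lists are counted but not reported by name here. The other experiments of the study were not analysed here.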

Additional observations from a re-analysis of the deposited data

How the results depend on the processing

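The contrast gave 420 lower and 235 higher calls (655). The counts moved by over 1.5 times with the length trend removed (791 lower, 628 higher, 1419 in all), with length and GC trends removed (1046, 926 and 1972), with the length trend removed and the replicate block (762, 606 and 1368), with p adjusted over the 4 pairs together (859, 650 and 1509), and, chosen after the data were seen, with the length trend removed and replicate 1 of 2 µM CBP30 left out (808, 552 and 1360). In the fit of the 4 samples alone limma called 1 lower, 0 higher and 1 in all. The higher calls moved to 133 without a filter (422 in all), 148 with a filter at 5 FPKM (429 in all), 398 with quantile normalization and 138 with small RNA genes kept. Lower calls were 64.1% of all calls in the values as deposited and 53% with length and GC trends removed. The cause of these changes was not tested.

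Leaving out 1 sample gave 44 to 3125 lower, 13 to 3353 higher and 57 to 6478 calls in all. The lowest counts came without a sample of 5 µM I-CBP112 (44 and 57 lower) and the highest without replicate 2 of 2 µM CBP30, which left the sample with the length trend alone in its group and assumed to vary like the other groups. For 5 µM CBP30 against 2 µM I-CBP112 the ranges were 1704 to 4071 lower, 1305 to 3544 higher and 3024 to 7615 in all, and with the length trend removed and replicate 1 of 2 µM CBP30 left out 3706 were higher. No named gene reversed its sign past the threshold in any alternative, and 411 of its planned values fell short of the threshold, 37 newly passed it and 1784 kept their side. With the replicate number as a block 316 genes were lower and 163 higher. Samples with the same number did not deviate together, with correlations from -0.28 to 0.15 over 10 pairs of groups, so the numbers were not taken to pair the samples. With 2 samples per group and no read counts, differences smaller than the replicate spread could not be seen.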

Other observations

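Some lists with few or no calls in the contrast, in the values as deposited, held many in the 4 samples outside it, where CBP30 had the higher dose. Of 22 genes of the ATF4 stress response, which covers amino acid and serine synthesis, 0 were called between 2 µM CBP30 and 5 µM I-CBP112 (2 lower with the length trend removed) and all 22 were lower with 5 µM CBP30 than with 2 µM I-CBP112 (median -0.64, against -0.02 in the contrast). ATF4 itself stood at 643 and 508 FPKM with 2 µM CBP30, 516 and 505 FPKM with 5 µM I-CBP112, 364 and 360 FPKM with 5 µM CBP30 and 485 and 534 FPKM with 2 µM I-CBP112. Of 34 nucleolar genes 29 were lower there, against 2 lower in the contrast as deposited and 11 lower with the length trend removed. Of 78 ribosomal proteins 37 were lower and 0 higher there, against 0 called in the contrast in either fit. Of 24 cholesterol synthesis genes 15 were higher and 0 lower, against 1 higher in the contrast (4 higher and 1 lower with the length trend removed). Of all genes tested 22.6% were called lower and 18.6% higher in these 4 samples, in the values as deposited. With the length trend removed 2934 of 11778 genes were lower and 3040 higher there. In the contrast the shares were 3.39% and 1.9%, and 6.72% and 5.33% with the length trend removed. Whether a list differed between the contrasts was not tested.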
